A study of Mus musculus with 4 samples.

Results

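The genes described here are 9 mouse genes of the heat shock chaperone families: Hspa8, Hspa5, Hspa4, Hsp90aa1, Hsp90ab1, Hsph1, Dnajb1, Hspa4l and Hspd1. They were chosen by name, with earlier results of these data known. All 9 were found among the 20211 gene symbols counted in every library. Chaperones bind unfolded or partly folded proteins and use ATP to help them fold, to keep them from clumping or to pass them on for degradation. HSP70 proteins do this in cycles: a J-domain protein of the HSP40 family delivers the client and starts ATP hydrolysis, and an HSP110 protein swaps the nucleotide so that the client is let go. HSP90 proteins take over late clients such as kinases and steroid receptors, and HSP60 forms a folding chamber in mitochondria. In neurons HSP70 of the cytosol also strips clathrin from vesicles recycled at synapses. Many of these genes are induced by heat shock factor 1, while the family member of the endoplasmic reticulum is induced by the unfolded protein response.

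The study profiled nuclear RNA of mouse hippocampus in 4 single-nucleus libraries, 1 for each genotype. The genotypes are wild type, a total (global) knockout of monoacylglycerol lipase (MAGL), a knockout specific to astrocytes and a knockout specific to neurons. MAGL, the product of Mgll, hydrolyses the endocannabinoid 2-arachidonoylglycerol in brain, and the series title concerns excess endocannabinoids in neurons and cognitive function. What the sources used here do not give are the Cre drivers, the part of Mgll that was deleted, strain, age and how many animals went into a library. A genotype is 1 library without a replicate, and genotypes were therefore compared as values, without a test. All intervals below are exact 95% intervals for counting error only and do not cover differences between animals or preparations.

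The 9 members hold different posts in the chaperone cycle. Hspa8 (chr9:40800984-40810087, plus strand) encodes the constitutive HSP70 of the cytosol, and Hspa5 (chr2:34771970-34777547, plus strand) encodes BiP, the HSP70 of the endoplasmic reticulum. Hspa4 (chr11:53259814-53300457, minus strand), Hspa4l (chr3:40744495-40796103, plus strand) and Hsph1 (chr5:149614287-149636376, minus strand) encode the HSP110 nucleotide exchange factors. Dnajb1 (chr8:83608193-83612653, plus strand) encodes an inducible HSP40. Hsp90aa1 (chr12:110690605-110702728, minus strand) encodes the inducible and Hsp90ab1 (chr17:45567775-45573271, minus strand) the constitutive HSP90 of the cytosol. Hspd1 (chr1:55077835-55088243, minus strand) encodes mitochondrial HSP60 and overlaps its partner gene Hspe1 on the opposite strand. These are whole-gene coordinates of GENCODE M21 on GRCm38 (mm10), from the first to the last exon.

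Promoter sequences of GRCm38.p6 from RefSeq were searched on both strands, from 250 bases before to 50 bases after each gene start, for the motifs of the stress pathways that act on these genes. The heat shock element was written as 2 facing units (TTCNNGAA or GAANNTTC), found in 15.1% of 32851 promoters, and as 3 units (GAANNTTCNNGAA on either strand), found in 0.603%; every match with 3 units also holds matches with 2 units. The endoplasmic reticulum stress element was written as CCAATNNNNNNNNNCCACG and found in 0.119%. Of the 9 members 6 were searched, and Hspa8, Hsp90aa1 and Hsp90ab1 were not. The windows that held a match are shown because they carry the motifs of the heat shock and unfolded protein pathways. They are printed 5′ to 3′ on the strand of the gene, with the matched motif in capitals. Positions are counted from the RefSeq start named on each line, which lies inside the gene as annotated by GENCODE, so the windows lie wholly or in part in annotated exons.
Hspd1, chr1:55088053-55088082 (minus strand), 150 to 121 bases before the RefSeq start at 55087932: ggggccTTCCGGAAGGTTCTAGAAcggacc
Hsph1, chr5:149636351-149636380 (minus strand), 44 to 15 bases before the RefSeq start at 149636336: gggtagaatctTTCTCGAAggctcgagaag
Hsph1, chr5:149636287-149636308 (minus strand), bases 28 to 49 after the RefSeq start at 149636336: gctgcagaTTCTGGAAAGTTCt
Hspa5, chr2:34772020-34772049 (plus strand), 70 to 41 bases before the RefSeq start at 34772090: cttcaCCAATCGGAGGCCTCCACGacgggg
The other RefSeq promoter of Hspd1, at 55088243, held no match, and that of Hsph1, at 149636315, held the same matches. The Hspd1 window also lies in the promoter of Hspe1, which is read the other way. The windows of Hspa4, Hspa4l and Dnajb1 held none of these letters, which says nothing of binding outside them. A match is a description of sequence, not a site shown to be bound.

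The libraries held 9369 (wild type), 31243 (total knockout), 10731 (astrocyte knockout) and 8945 (neuron knockout) barcodes with 81623644 to 193307038 UMIs, and 8949, 23603, 10003 and 8670 nuclei were kept. The total knockout library stood apart: its median depth was 5456 UMIs against 7448 to 8904 in the other libraries, 23.6% of its barcodes were called doublets against 1.86% to 6.07%, and 0 of its nuclei were called female against 39.6% to 46.5%. Pairs of libraries shared 108 to 466 barcodes. Mgll was still counted in excitatory neurons, at 103 (wild type), 79.7 (total), 104 (astrocyte) and 106 CPM (neuron knockout), in inhibitory neurons, at 119, 121, 135 and 121 CPM, and in astrocytes, on 18 to 108 UMIs, at 433, 348, 444 and 516 CPM. These counts cannot check the labels, since the deleted part is not known.

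Nuclei were put in classes by marker genes, and UMIs were summed over each class and scaled to the total of the class (CPM). A class is a range set by a marker threshold, and 2.02% to 5.50% of dentate granule nuclei and 7.64% to 16.6% of inhibitory nuclei lay next to the threshold. The share was 49.8% to 59.1% for CA1, 49.2% to 60.0% for CA2/CA3 and 44.0% to 52.0% for cortical or subicular nuclei, so these classes are less sharply bounded. Wild-type dentate granule nuclei held a median of 7 of 8 own markers and inhibitory nuclei a median of 6 with 1 excitatory marker. Wild-type CA1 nuclei held a median of 5 own markers and 2 of CA2/CA3. In dentate granule, inhibitory and CA1 nuclei the own-marker medians were 6, 5 and 4 in the total knockout. They were 6, 6 and 4 in the astrocyte and 7, 6 and 5 in the neuron knockout. In dentate granule nuclei inhibitory markers summed to 75.6, 114, 88.6 and 85.1 CPM in wild type, total, astrocyte and neuron knockout. Microglial markers summed to 53.6, 43.8, 52.6 and 44.1 CPM there. The classes were thus not equally clean in all libraries. There were 1717 to 4112 dentate granule, 1172 to 1831 CA1, 342 to 648 CA2/CA3, 629 to 1580 cortical or subicular and 1099 to 3218 inhibitory nuclei per library. Level values below are CPM of 1 gene in 1 class, and genes are not ranked against each other because counts were not scaled by transcript length.

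In wild type most members were lowest in dentate granule or CA2/CA3 nuclei and highest in inhibitory or cortical neurons. The exceptions were Hsph1, highest in CA1 nuclei (51.6 CPM), and Hspd1, lowest there (24.3 CPM), although both lay within counting error of the next class. Hspa8 stood at 330.0 CPM in inhibitory, 275 in cortical or subicular, 203 in CA1, 160.1 in dentate granule and 146 in CA2/CA3 nuclei, each step larger than counting error. The same order of classes held for Hspa8 in all 4 libraries, although dentate granule and CA2/CA3 nuclei did not differ beyond counting error in the astrocyte knockout (log2 0.14, interval -0.00 to 0.29) or the neuron knockout (0.16, -0.01 to 0.32). Hsp90aa1 ran from 299 CPM in inhibitory and 269 in cortical or subicular nuclei to 190.5 in CA1, 142 in CA2/CA3 and 134 in dentate granule nuclei. The 2 lowest of these did not differ beyond counting error. Hsp90ab1 was alike in cortical or subicular (298 CPM) and inhibitory nuclei (289.5, a log2 difference of 0.04 with interval -0.04 to 0.12) and lowest in CA2/CA3 nuclei (172). Hspa5 was highest in inhibitory nuclei (134 CPM), with 114 in cortical or subicular, 107 in CA1, 83.1 in dentate granule and 72.2 in CA2/CA3 nuclei.

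Hspa4l had another order. In wild type it was 129 CPM in cortical or subicular, 109 in CA2/CA3, 105.0 in inhibitory, 95.7 in CA1 and only 47.7 in dentate granule nuclei. Dentate granule nuclei were lowest in all 4 libraries, and CA1 exceeded them by a log2 ratio of 1.00, 0.93, 0.93 and 0.91 in wild type, total, astrocyte and neuron knockout. Inhibitory nuclei were also split into subtypes with at least 2 UMIs of a marker (Pvalb, Sst, Vip or Lamp5) and no UMI of the other markers. Hspa4l was 165, 198, 161 and 166 CPM, in the same order of libraries, in those with Pvalb (43 to 60 nuclei). It was 92.6, 99.2, 111 and 94.3 in those with Sst, and 71.4, 74.7, 64.4 and 73.3 in those with Lamp5. Pvalb nuclei thus had the highest Hspa4l of these subtypes in every library. In wild type Hspa8 stood at 325 CPM in Pvalb, 326 in Sst and 354 in Lamp5 nuclei, while in the neuron knockout it was 196 in Pvalb, 149 in Sst and 138 in Lamp5 nuclei. Nuclei with Vip held 357 CPM in wild type and 198 in the neuron knockout, where they were thus close to Pvalb nuclei. In the total knockout Pvalb, Sst and Lamp5 nuclei held 159, 163 and 151 CPM, and in the astrocyte knockout 148, 151 and 152.

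**Figure D1:**
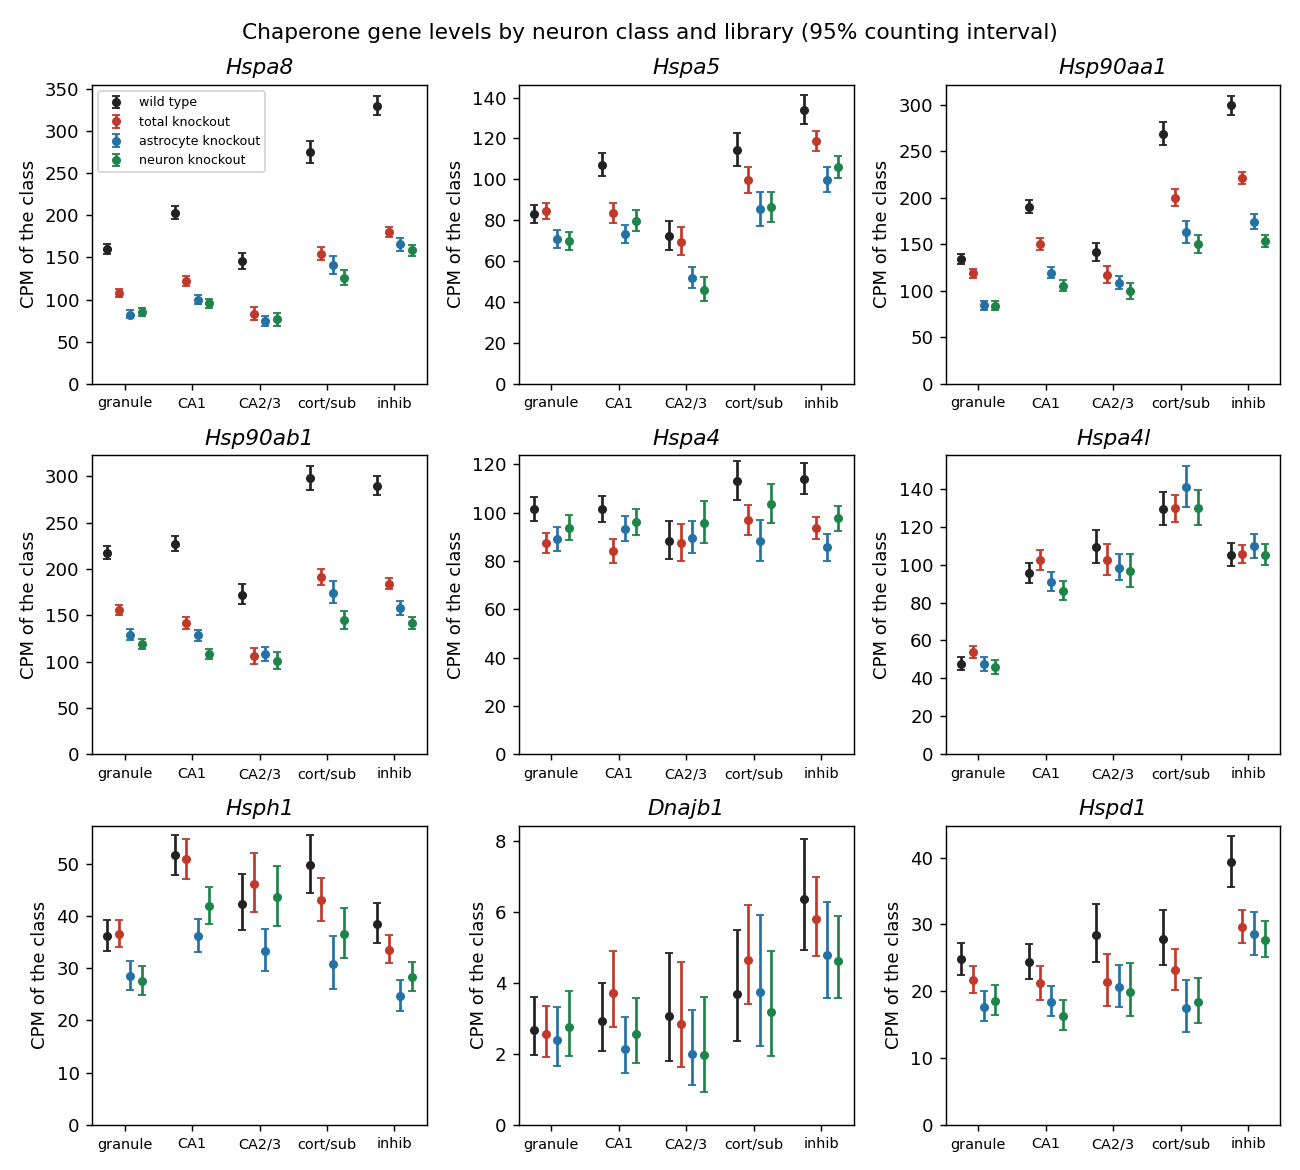
Level of the 9 chaperone genes in 5 neuron classes of the 4 libraries. Each panel is 1 gene, the y axis is CPM (UMIs scaled to the total of the class) and bars are exact 95% intervals for counting error. Wild type has the highest Hspa8, Hsp90aa1 and Hsp90ab1 in all 5 classes, and Hspa4l is lowest in dentate granule nuclei in each library.

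Hspa8, the constitutive HSP70, was lower in each knockout library than in wild type in all 5 neuron classes. In dentate granule nuclei wild type held 160.1 CPM, with 108 in the total, 82.3 in the astrocyte and 85.3 in the neuron knockout. Relative to wild type this was a log2 ratio of -0.57 (-0.65 to -0.49), -0.96 (-1.06 to -0.86) and -0.91 (-1.01 to -0.81). Wild type was thus highest, and the total knockout lay between it and the other knockouts. In CA1 nuclei it was 203, 122, 99.8 and 95.6 CPM in the same order of libraries. The ratios there were -0.73 (-0.82 to -0.64), -1.02 (-1.12 to -0.93) and -1.09 (-1.18 to -0.99). In inhibitory nuclei the levels were 330.0, 179.8, 165 and 158 CPM, with ratios of -0.88 (-0.94 to -0.81), -0.996 (-1.08 to -0.91) and -1.06 (-1.14 to -0.98). CA2/CA3 nuclei held 146, 82.8, 74.6 and 76.6 CPM. Cortical or subicular nuclei held 275, 154, 141 and 126 CPM. Over these 15 ratios the median was -0.96 and the range -1.13 to -0.57, and all 15 intervals lay below 0.

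The same direction was seen among inhibitory nuclei split by subtype marker. Hspa8 was 325, 159, 148 and 196 CPM in Pvalb nuclei, in the order wild type, total, astrocyte and neuron knockout. In Sst nuclei it was 326, 163, 151 and 149, and in Lamp5 nuclei 354, 151, 152 and 138. Nuclei with Vip held 357, 229.9, 208 and 198 CPM, so wild type was highest in each of these subtypes.

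The HSP90 genes of the cytosol, which serve late clients of the HSP70 cycle, were also lower in every knockout library. Constitutive Hsp90ab1 was 217 CPM in wild-type dentate granule nuclei and 156, 129 and 119 CPM in the total, astrocyte and neuron knockouts. Its ratios were -0.48 (-0.55 to -0.41), -0.75 (-0.83 to -0.67) and -0.87 (-0.95 to -0.78). In CA1 nuclei it was 227, 142, 128 and 108 CPM and in inhibitory nuclei 289.5, 184, 158 and 141 CPM. The neuron knockout had the lowest level in each of these classes. CA2/CA3 nuclei held 172, 106, 108 and 101 CPM and cortical or subicular nuclei 298, 191.5, 174.5 and 145 CPM. The 15 ratios of Hsp90ab1 ran from -1.07 to -0.48 with a median of -0.77, and all 15 intervals lay below 0.

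Inducible Hsp90aa1 showed the smallest differences in the total knockout. Dentate granule nuclei held 134 CPM in wild type and 119 in the total, 84.5 in the astrocyte and 83.7 in the neuron knockout, with ratios of -0.17 (-0.26 to -0.09), -0.66 (-0.77 to -0.56) and -0.68 (-0.78 to -0.57). In CA1 nuclei it was 190.5, 149.9, 119.5 and 105.5 CPM. In inhibitory nuclei it was 299, 221, 174 and 153 CPM, with ratios of -0.44 (-0.50 to -0.37), -0.78 (-0.86 to -0.70) and -0.96 (-1.04 to -0.88). CA2/CA3 nuclei held 142, 117, 109 and 99.4 CPM and cortical or subicular nuclei 269, 200.1, 163 and 150.3 CPM. Levels therefore descended from wild type through the total and astrocyte to the neuron knockout in each of these classes. The last step was small in dentate granule nuclei. Over the 15 ratios the median was -0.66. All 15 intervals lay below 0 over all nuclei, but 12 between male nuclei and 11 in nuclei with no mitochondrial UMI. In dentate granule nuclei of the total knockout the ratio was -0.10 and -0.01 in these, with intervals that spanned 0.

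Hspa5, the HSP70 of the endoplasmic reticulum with the stress element shown above, differed less and not in every class. Dentate granule nuclei of wild type held 83.1 CPM, with 84.3 in the total, 70.6 in the astrocyte and 69.9 in the neuron knockout. Its ratios there were 0.02 (-0.08 to 0.12), -0.24 (-0.35 to -0.12) and -0.25 (-0.37 to -0.13), so over all nuclei the total knockout was at the wild-type level within counting error. Between male nuclei it was lower, at 83.5 against 98.4 CPM (-0.24, -0.37 to -0.11). In CA1 nuclei it was 107, 83.4, 73.1 and 79.8 CPM, in CA2/CA3 nuclei 72.2, 69.6, 51.9 and 46.1, and in cortical or subicular nuclei 114, 99.5, 85.3 and 86.4. Inhibitory nuclei held 134, 119, 99.8 and 106 CPM. Of the 15 ratios 14 were below 0, and 13 intervals lay below 0. The median was -0.36.

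Hspd1, the mitochondrial HSP60, was lower than wild type in all 15 comparisons, with a range of -0.67 to -0.20, and 12 intervals lay below 0 over all nuclei. Between male nuclei only 2 did, both in cortical or subicular nuclei, and all 9 in dentate granule, CA1 and inhibitory nuclei spanned 0. It was 24.8, 21.6, 17.7 and 18.6 CPM in dentate granule nuclei of wild type, total, astrocyte and neuron knockout, and 24.3, 21.2, 18.4 and 16.3 in CA1 nuclei. Inhibitory nuclei held 39.3, 29.6, 28.5 and 27.7 CPM. In CA2/CA3 nuclei it was 28.5, 21.4, 20.6 and 19.9, and in cortical or subicular nuclei 27.8, 23.1, 17.5 and 18.4. Hspe1, which encodes its co-chaperonin and shares its promoter region, was 25.1, 16.6, 16.1 and 14.2 CPM in dentate granule nuclei. If strand was not used in counting, reads of the overlapping stretch cannot be assigned to one of these genes.

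The 3 HSP110 genes did not move alike. Hsph1, whose promoter holds the heat shock elements shown above, was 36.2, 36.5, 28.4 and 27.5 CPM in dentate granule nuclei of wild type, total, astrocyte and neuron knockout. It was 51.6, 50.8, 36.2 and 41.9 in CA1 nuclei, and 38.5, 33.6, 24.7 and 28.3 in inhibitory nuclei. The total knockout was thus near wild type in dentate granule and CA1 nuclei, with ratios of 0.02 (-0.14 to 0.17) and -0.02 (-0.18 to 0.13). In CA2/CA3 nuclei Hsph1 was 42.4, 46.1, 33.3 and 43.6 CPM, and in cortical or subicular nuclei 49.7, 43.0, 30.8 and 36.5. The astrocyte knockout had the lowest Hsph1 in 4 of the 5 classes, all but the dentate granule nuclei. Hspa4 was 101, 87.4, 89.1 and 93.7 CPM in dentate granule nuclei, 101, 84.1, 93.4 and 96.1 in CA1 nuclei, and 114, 93.6, 85.6 and 97.7 in inhibitory nuclei. Its levels were 88.5, 87.4, 89.6 and 95.9 CPM in CA2/CA3 nuclei and 113, 96.8, 88.4 and 103.5 in cortical or subicular nuclei. The Hspa4 ratios ranged from -0.41 to 0.12, with 10 of 15 intervals below 0 over all nuclei. Only 6 lay below 0 between male nuclei, and 6 in nuclei with no mitochondrial UMI.

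Hspa4l, the third HSP110 gene, stayed near wild type, with ratios from -0.18 to 0.17 and a median of 0.00. It was 47.7, 53.8, 47.6 and 45.9 CPM in dentate granule nuclei, 95.7, 102, 90.9 and 86.2 in CA1 nuclei, and 105.0, 105.4, 109.6 and 105.2 in inhibitory nuclei. Only 2 of its 15 intervals lay below 0 and 1 above, the latter in the total knockout in dentate granule nuclei (0.17, 0.04 to 0.31). In CA2/CA3 nuclei it was 109, 102, 98.5 and 96.5 CPM and in cortical or subicular nuclei 129, 129.6, 141 and 129.9. Dnajb1, the inducible HSP40, rested on few counts: 45, 53, 34 and 38 UMIs (2.68, 2.55, 2.38 and 2.75 CPM) in dentate granule nuclei. Inhibitory nuclei held 68, 108, 52 and 66 UMIs (6.35, 5.78, 4.77 and 4.62 CPM), and CA1 nuclei 40, 49, 31 and 33 UMIs. All 15 of its intervals spanned 0, so no difference was detectable at this depth.

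**Figure D2:**
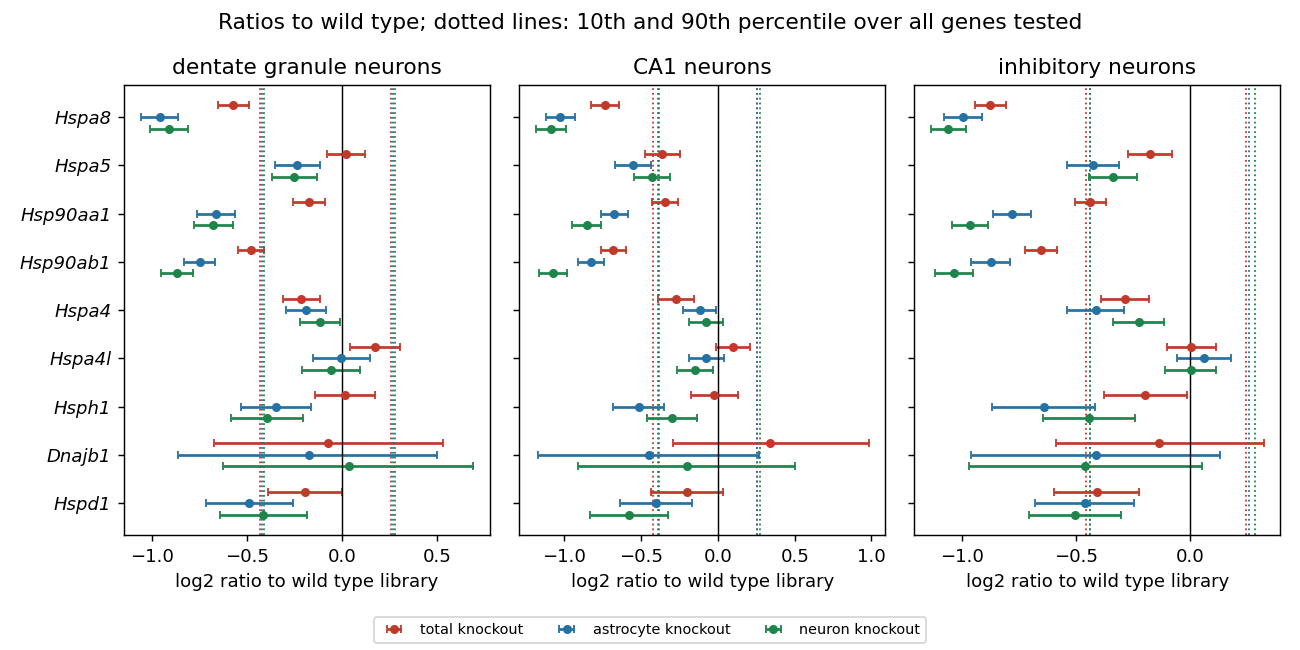
Log2 ratio of each knockout library to wild type for the 9 genes in dentate granule, CA1 and inhibitory nuclei. Bars are exact 95% intervals for counting error, and dotted lines mark the 10th and 90th percentile of the ratios of all genes with at least 100 UMIs. Hspa8 and Hsp90ab1 lie below the lower line in all 9 comparisons shown, and Hspa4l lies near 0.

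The number of members at least 1.5-fold below wild type was read beside the share of all genes that were, among genes that reached 100 UMIs in a class when the 4 libraries were summed. All 3 knockout comparisons use the same wild-type library, so a value particular to that library enters each of them. The members were chosen with earlier results of these data known, so their counts are a description and not a test. In dentate granule nuclei 0 of 9 members lay past 1.5-fold in the total, 3 in the astrocyte and 3 in the neuron knockout, each of them lower. The share of all 13334 genes past 1.5-fold lower was 5.63%, 4.87% and 4.60%, and in either direction 7.92%, 7.11% and 6.83%. The 3 genes were Hspa8, Hsp90aa1 and Hsp90ab1 in both libraries. With nuclei thinned to 1000 UMIs Hsp90aa1 was no longer past 1.5-fold in either. In CA1 nuclei the counts were 2, 3 and 3 of 9, all lower, against 5.21%, 4.07% and 4.24% of 13040 genes (either direction 7.06%, 5.73% and 6.10%). In inhibitory nuclei they were 2, 4 and 3 of 9, all lower, against 6.27%, 5.15% and 5.58% of 13573 genes (either direction 8.49%, 7.22% and 7.74%). CA2/CA3 nuclei gave 2, 2 and 3 of the 8 members with enough UMIs, all but Dnajb1, against 5.73%, 3.31% and 4.73% lower (either direction 7.78%, 5.11% and 7.11%). Cortical or subicular nuclei gave 2, 5 and 4 of 9, against 4.46%, 5.12% and 3.96% lower (either direction 6.72%, 8.21% and 6.62%). Members past 1.5-fold in either direction were these same ones in all 15 comparisons. All of these counts use nuclei of both sexes where present. Between male nuclei they were 0, 2 and 3 in dentate granule nuclei, beside 10.1%, 11.0% and 9.92% of all genes in either direction. In male CA1 nuclei they were 0, 2 and 2, beside 9.89%, 9.93% and 9.51%. Male inhibitory nuclei gave 1, 2 and 3, beside 11.1%, 11.0% and 10.9%. The male shares are over the same genes as with all nuclei, which rest on fewer UMIs in male nuclei.

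Across the 15 comparisons the median log2 ratio of the members ran from -0.66 to -0.17, and that of all genes from -0.05 to -0.01. Placed among all genes, Hspa8 had a lower ratio than nearly all: the share of genes with a still lower ratio was 0.299% to 5.84% (median 0.833%). That share had a median of 2.05% for Hsp90ab1 (range 0.330% to 8.41%) and 3.28% for Hsp90aa1 (0.950% to 29.0%). It was 9.17% for Hspd1 (3.53% to 26.5%), 12.6% for Hspa5 (3.64% to 62.7%) and 13.9% for Hsph1 (3.12% to 76.5%). Hspa5 and Hsph1 thus did not lie low in every comparison. The median was 28.1% for Hspa4, 33.1% for Dnajb1 (8.07% to 93.5%, on few UMIs) and 56.2% for Hspa4l. Hspa4l was the only member with a median in the upper part of the range. These ranks describe the 4 libraries and are not a test.

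The knockout libraries were also set directly against each other. These ratios use all nuclei, although the total knockout held no female nucleus. Over the 5 classes the median ratio of the members between 2 knockouts ran from -0.35 to -0.01. Hspa8 in dentate granule nuclei was lower than in the total knockout by log2 ratios of -0.39 in the astrocyte and -0.34 in the neuron knockout, and the neuron knockout did not differ from the astrocyte knockout beyond counting error (0.05, -0.07 to 0.17). In inhibitory nuclei the corresponding ratios of Hspa8 were -0.12, -0.18 and -0.06 (-0.15 to 0.03). Between male nuclei Hspa8 was 179, 176 and 155 CPM in inhibitory nuclei of the total, astrocyte and neuron knockouts. The total and astrocyte knockouts were thus nearly alike there. Male dentate granule nuclei held 106, 80.4 and 86.5 CPM. Hsp90aa1 in dentate granule nuclei had ratios of -0.49 and -0.50 to the total knockout, larger in size than that of the total knockout to wild type (-0.17), and -0.53 in inhibitory nuclei of the neuron knockout. Hsp90ab1 in CA1 nuclei was -0.15 in the astrocyte and -0.39 in the neuron knockout. Between male nuclei Hsp90aa1 was 115, 86.5 and 82.0 CPM in dentate granule nuclei of the total, astrocyte and neuron knockouts. Hsp90ab1 was 139, 129 and 115 CPM in male CA1 nuclei.

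Nuclei were called female by Xist or male by Y-linked transcripts, and nuclei of the 2 sexes in a library come from different animals. In wild type Hspa8 and the HSP90 genes were higher in female CA1 and inhibitory nuclei. Hspa8 was 226 against 174 CPM in CA1 (log2 0.38, 0.26 to 0.49) and 359 against 289 in inhibitory nuclei (0.31, 0.21 to 0.42). Hsp90ab1 was 261 against 185 in CA1 nuclei (0.50) and Hsp90aa1 324 against 254 in inhibitory nuclei (0.35). Hspa5 had the opposite direction in wild type, 65.8 CPM in female and 98.4 in male dentate granule nuclei (-0.58, -0.75 to -0.41). In the astrocyte knockout Hspa8 was lower in female than in male CA1 nuclei, 89.9 against 111 CPM (-0.31, -0.47 to -0.15), and in the neuron knockout 80.2 against 107 (-0.42, -0.60 to -0.24). So the female-to-male difference of Hspa8 in CA1 nuclei had opposite signs in wild type and in these knockouts. In inhibitory nuclei it was -0.15 (-0.29 to -0.01) in the astrocyte and 0.01 (-0.11 to 0.14) in the neuron knockout, and in dentate granule nuclei it spanned 0 in wild type and both knockouts. The change of sign was thus not seen in every class. Hspa5 in dentate granule nuclei was lower in female nuclei of the neuron knockout too (57.0 against 84.1 CPM). The number of animals behind each sex is not known, so a sex cannot be told apart from single animals.

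Because the total knockout library held no female nucleus, the ratios were also taken between male nuclei. Hspa8 then had log2 ratios of -0.55, -0.95 and -0.84 in dentate granule, -0.53, -0.65 and -0.70 in CA1 and -0.69, -0.71 and -0.89 in inhibitory nuclei of the total, astrocyte and neuron knockouts. Hsp90ab1 had -0.33, -0.60 and -0.63 in dentate granule, -0.40, -0.52 and -0.68 in CA1 and -0.45, -0.55 and -0.78 in inhibitory nuclei. Both genes thus stayed below wild type in male nuclei, and all of these ratios were smaller in size than with all nuclei. Over the 5 neuron classes all 15 male intervals of both genes lay below 0. For Hsp90aa1 12 of 15 did, and the others spanned 0. These were the total knockout in dentate granule nuclei (-0.10, -0.21 to 0.01) and CA2/CA3 nuclei (-0.08, -0.29 to 0.13) and the astrocyte knockout in CA2/CA3 nuclei (-0.03, -0.25 to 0.20). The male count of intervals below 0 was 14 of 15 for Hspa5, 9 for Hsph1, 6 for Hspa4 and 2 for Hspd1. Wild-type female nuclei held more Hspd1 than male ones in dentate granule (28.2 against 21.5 CPM), CA1 (27.9 against 20.1) and inhibitory nuclei (42.7 against 33.9). For Hspa4l 3 male intervals lay above 0 and 0 below, and for Dnajb1 all 15 spanned 0. Among male nuclei 0, 2 and 3 members lay past 1.5-fold in dentate granule nuclei of the total, astrocyte and neuron knockouts, beside 10.1%, 11.0% and 9.92% of all genes. Hsp90aa1 was no longer among them in the astrocyte knockout. In CA1 nuclei 0, 2 and 2 did, in place of 2, 3 and 3 with all nuclei, beside 9.89%, 9.93% and 9.51%. The 2 in the astrocyte knockout were Hspa8 and Hspa5, and the HSP90 genes were no longer among them. Hspa8 and Hsp90ab1 were lost in the total and Hsp90aa1 in the neuron knockout. In inhibitory nuclei 1, 2 and 3 did, in place of 2, 4 and 3, beside 11.1%, 11.0% and 10.9%. Hspa8 was the 1 in the total knockout, and Hspa8 and Hsph1 were the 2 in the astrocyte knockout.

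Mitochondrial transcripts and those of ribosomal protein genes were summed by library, as signs of RNA from outside the nucleus. Mitochondrial transcripts summed to 482, 468, 266 and 109 CPM in dentate granule nuclei of wild type, total, astrocyte and neuron knockout, and to 561, 483, 307 and 132 CPM in inhibitory nuclei. The 94 cytosolic ribosomal protein genes summed to 4289, 3640, 3098 and 3019 CPM in dentate granule and 3610, 3222, 2742 and 2700 CPM in inhibitory nuclei. Both were highest in wild type, as were Hspa8 and the HSP90 genes. In CA1 nuclei mitochondrial transcripts summed to 295, 292, 210 and 63.7 CPM, and ribosomal protein genes to 2803, 2556, 2342 and 2166 CPM. In dentate granule and CA1 nuclei the total knockout was thus near wild type in mitochondrial transcripts but lower in ribosomal protein genes. Hspa8 was 108 and 122 CPM in these nuclei of the total knockout, and 160.1 and 203 CPM in wild type. In nuclei with no mitochondrial UMI (28.8%, 30.2%, 36.4% and 69.3% of dentate granule nuclei) Hspa8 had ratios to wild type of -0.37 (-0.54 to -0.19), -0.89 and -0.79. It had -0.73, -1.05 and -0.95 in CA1 and -0.75, -0.87 and -0.91 in inhibitory nuclei of this kind. Hsp90ab1 had -0.34, -0.47 and -0.63 in dentate granule and -0.41, -0.67 and -0.73 in inhibitory nuclei. For Hsp90aa1 in the total knockout the ratio was -0.01 (-0.19 to 0.17) in dentate granule and -0.16 (-0.35 to 0.03) in CA1 nuclei, so those differences were not detectable in nuclei with no mitochondrial UMI. In these nuclei 0, 2 and 2 members lay past 1.5-fold in dentate granule nuclei, beside 13.7%, 12.5% and 10.5% of all genes. In the astrocyte knockout Hsp90aa1 and Hsp90ab1 were no longer among them and Dnajb1 was, on 11 wild-type and 7 knockout UMIs (interval -2.33 to 0.78), and in the neuron knockout Hsp90aa1 was no longer among them. In CA1 nuclei 3, 4 and 2 members did, beside 15.0%, 14.1% and 11.3%. Hspa5 and Hsph1 were added and Hsp90aa1 lost in the astrocyte knockout, Dnajb1 lay past the fold above wild type in the total knockout on 5 and 11 UMIs (interval -0.73 to 2.79), and Hsp90aa1 was lost in the neuron knockout. In inhibitory nuclei 1, 4 and 4 members did, beside 18.6%, 20.5% and 17.2%. The shares of all genes in these nuclei are over genes with enough UMIs in all nuclei, which rest on fewer UMIs here. How much counting error adds to them was not tested. Hsp90ab1 was lost in the total and Hsph1 in the astrocyte knockout, and Dnajb1 was added in the astrocyte and neuron knockouts on 12 wild-type and 13 and 37 knockout UMIs, with intervals that spanned 0. Over the 5 neuron classes all 15 intervals of Hspa8 and of Hsp90ab1 lay below 0 in these nuclei, 11 of Hsp90aa1, 10 of Hspa5, 6 of Hspa4, 5 of Hsph1 and 4 of Hspd1. The part of cytoplasmic or ribosomal RNA in the results was not tested beyond this.

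**Figure D3:**
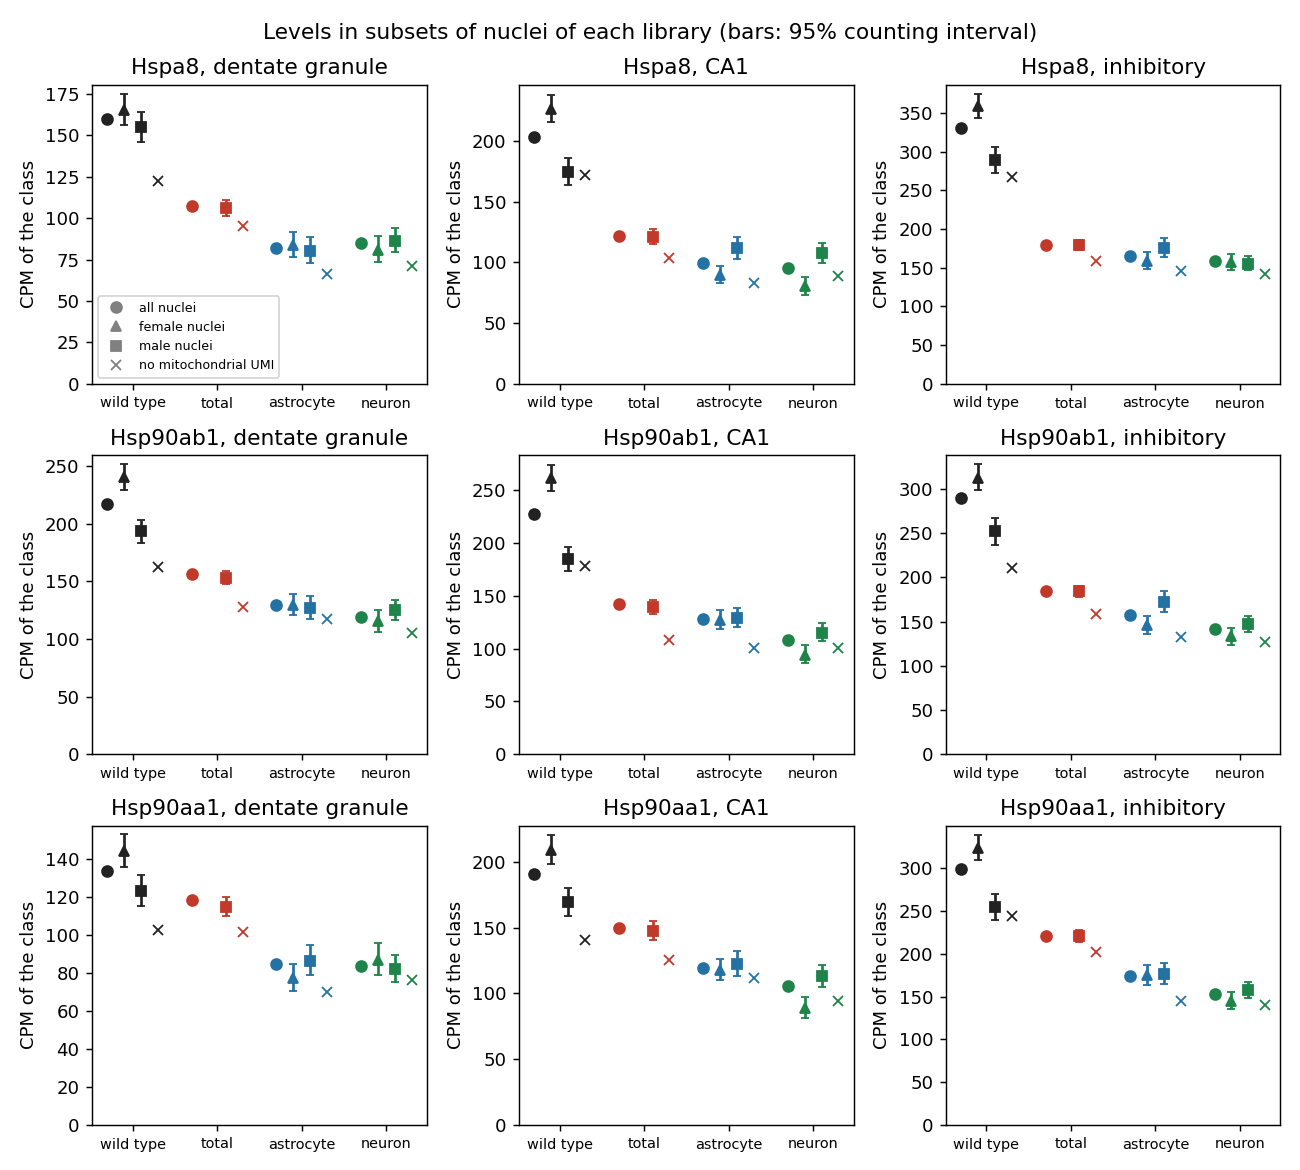
Hspa8, Hsp90ab1 and Hsp90aa1 in all, female and male nuclei and in nuclei with no mitochondrial UMI, by library. The y axis is CPM, bars (drawn for female and male nuclei) are exact 95% intervals for counting error, and the total knockout has no female nuclei. Female wild-type CA1 nuclei hold more Hspa8 (226 CPM) than male ones (174), while in the neuron knockout the order is the opposite (80.2 and 107).

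The share of nuclei with an Hspa8 UMI was compared at equal depth. With each nucleus thinned to 1000 UMIs it was 15.6% (14.0% to 17.3%) in wild-type dentate granule nuclei, 11.4% (10.5% to 12.4%) in the total, 8.33% (7.18% to 9.61%) in the astrocyte and 8.34% (7.08% to 9.75%) in the neuron knockout. Unthinned shares were 67.5%, 40.8%, 39.8% and 43.7%. Between 1 and 14 inhibitory nuclei per library were too shallow and left out. In inhibitory nuclei the thinned shares were 28.7%, 17.3%, 16.1% and 15.97%, and in CA1 nuclei 20.5%, 12.5%, 9.10% and 10.4%. Wild type was highest and the total knockout second in each class. The astrocyte and neuron knockouts had the opposite order to their CPM in CA1 nuclei.

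Partners of the members were taken as lists. The lists were chosen with earlier results of these data known, so their counts are a description and not a test. A list of 29 cytosolic partners and co-chaperones was drawn up around the heat shock factor 1 response. It also holds Hsf1 and Hsf2, and whether heat shock factor 1 acts on each gene was not tested. In dentate granule nuclei 25 of the 29 genes had enough UMIs. Of these, 3, 6 and 5 lay 1.5-fold below wild type in the total, astrocyte and neuron knockouts with 0 above. Their median ratios were -0.27, -0.32 and -0.29. Ubb, a ubiquitin precursor gene, was 128, 65.5, 84.9 and 84.1 CPM in dentate granule nuclei. Cacybp, a binding partner of a ubiquitin ligase complex, was 21.6, 15.7, 13.6 and 12.4 CPM. In inhibitory nuclei 3, 4 and 6 of 26 genes of this list lay lower and 0 higher, with medians of -0.26, -0.40 and -0.34. Dnaja1, an HSP40 that works with Hspa8, was 101, 77.2, 71.2 and 65.3 CPM there. In CA1 nuclei 2, 1 and 3 of 25 lay lower, and 1 (Bag3, in the astrocyte knockout) higher. CA2/CA3 nuclei gave 3, 1 and 1 of 24 lower and cortical or subicular nuclei 2, 1 and 3 of 24. Counts of 1 of 24 or 25 are near the share of all genes past 1.5-fold lower, which was 3.31% to 6.27% in these classes. The highest counts of the list were 6 of 25 in dentate granule nuclei of the astrocyte knockout, beside 4.87%, and 6 of 26 in inhibitory nuclei of the neuron knockout, beside 5.58%. The classical heat-induced HSP70 genes were almost without counts: Hspa1a had 10, 10, 8 and 12 UMIs and Hspa1b 3, 11, 4 and 11 UMIs in dentate granule nuclei, and the small heat shock gene Hspb1 had 0, 2, 2 and 3.

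Chaperones of the endoplasmic reticulum were seldom past 1.5-fold. Of 22 such genes and genes of the unfolded protein response, 0 lay 1.5-fold lower in dentate granule nuclei of any knockout. One, Syvn1, a ubiquitin ligase of the endoplasmic reticulum, lay higher in the neuron knockout (6.97 CPM in wild type and 10.9 there, 0.65, 0.29 to 1.01). The list's medians were -0.05, 0.00 and -0.08. Hsp90b1, the HSP90 of that compartment, was 99.996, 99.4, 86.0 and 87.8 CPM, and Calr, the lectin chaperone calreticulin, 111, 90.1, 90.5 and 98.5. In inhibitory nuclei 0, 0 and 1 of 22 lay lower (Ddit3) and 0, 0 and 1 higher (Syvn1). CA2/CA3 nuclei of the neuron knockout were the exception, with 4 of 20 lower beside 4.73% of all genes. These were Pdia3 (78.7 CPM in wild type and 49.2 in the neuron knockout), Hyou1 (15.1 and 8.98), Dnajb9 (15.6 and 10.2) and Atf4 (13.1 and 8.59), the last on 44 UMIs. Syvn1 lay higher in CA2/CA3 nuclei of all 3 knockouts, at 7.12 CPM in wild type and 10.8, 11.1 and 11.1 in the total, astrocyte and neuron knockouts, on 42 to 89 UMIs. Over the 15 comparisons 0 to 4 genes of the list lay lower and 0 to 1 higher, and its medians ran from -0.28 to 0.00. Of 10 mitochondrial chaperones and proteases 0 to 2 lay lower in each comparison, from among Hspe1 and Grpel1. Of the 18 to 19 genes of a list of constitutive HSP40 and HSP70 relatives and BAG co-chaperones, 0 to 3 lay lower and 0 to 1 higher in each comparison. The lower ones were from among Hspa2, Dnajb2, Bag1, Bag5 and Bag6, and Hspa2, an HSP70 relative, was 11.5, 7.93, 6.85 and 6.15 CPM in dentate granule nuclei. For these lists the counts are too small to set apart from the shares of all genes given above. The cold-inducible genes Cirbp and Rbm3 lay within 1.5-fold of wild type in every knockout and neuron class.

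The members also shared a pattern over libraries to different degrees. Over 12 points (4 libraries in dentate granule, CA1 and inhibitory nuclei, centred within class) the Pearson r with the mean of the 9 members was 0.98 for Hsp90aa1, 0.97 for Hspa8, Hsp90ab1 and Hspd1, 0.93 for Hspa5 and 0.90 for Hsph1. It was 0.65 for Dnajb1, 0.59 for Hspa4 and 0.35 for Hspa4l. The points share libraries and each gene is part of the mean, so this is a description. Among 8139 genes with enough UMIs, members included, the 10 non-members most alike in pattern were Ncl, Sncb, Smc1a, Safb, Eif3c, Cox6a1, Stmn1, Gm42418, Oaz1 and Mrps33, with r from 0.975 to 0.985. Ncl, which encodes nucleolin of the nucleolus, was 61.7, 50.0, 40.2 and 41.3 CPM in dentate granule nuclei. Gm42418, whose annotated locus overlaps ribosomal RNA sequence, was 549.9, 435, 332 and 288 CPM.

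In oligodendrocytes 5 members were higher in the total knockout than in wild type, with intervals above 0 over all nuclei. Hsp90aa1 was 340 (wild type, 395 nuclei) and 471 CPM (total knockout, 1412 nuclei), a log2 ratio of 0.47 (0.31 to 0.63), and Hsp90ab1 331 and 379 CPM (0.20, 0.03 to 0.37). Hspa5 was 127 and 157 CPM (0.30, 0.03 to 0.58), Hsph1 27.2 and 42.4 CPM (0.64, with a lower bound of 0.07) and Hspa4l 49.7 and 69.6 CPM (0.49, 0.06 to 0.93). Hspa8 alone was lower with an interval below 0, at 231 and 180.3 CPM (-0.36, -0.58 to -0.14). Between male oligodendrocyte nuclei (138 and 745) the intervals of Hsp90aa1 (0.25, -0.01 to 0.51), Hsp90ab1 (-0.01, -0.27 to 0.26), Hspa5 (-0.06, -0.46 to 0.36) Hsph1 (0.29, -0.55 to 1.22) and Hspa4l (0.29, -0.33 to 0.96) spanned 0, and Hspa8 stood at -0.60 (-0.93 to -0.26). Excitatory markers summed to 543 CPM in wild-type and 128 CPM in total knockout oligodendrocytes, and oligodendrocyte markers to 16441 and 22092. Mitochondrial transcripts summed to 562 and 662 CPM in these nuclei, and ribosomal protein genes to 4158 and 3979 CPM. The part of these in the differences was not tested. The astrocyte and neuron knockouts held only 56 and 68 oligodendrocytes, in which Hsp90aa1 was 252 and 194 CPM and Hsp90ab1 196 and 156.

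**Figure D4:**
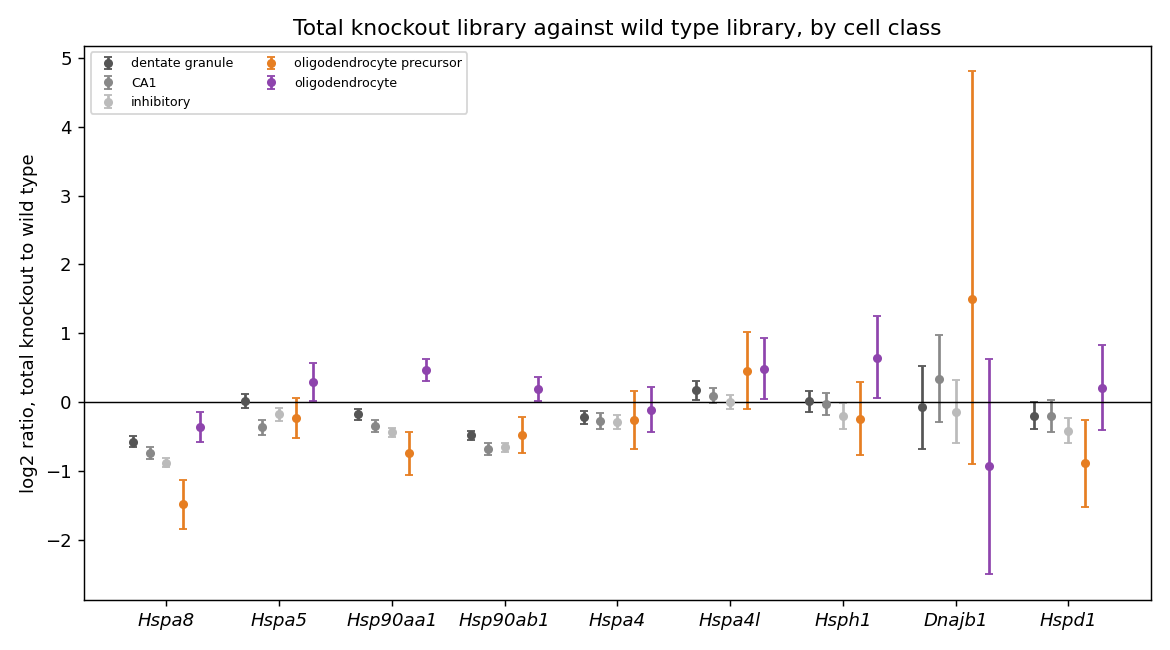
Log2 ratio of the total knockout to wild type for the 9 genes in 3 neuron classes, oligodendrocyte precursors and oligodendrocytes, with exact 95% intervals for counting error. Hsp90aa1 and Hsp90ab1 lie above 0 in oligodendrocytes (0.47 and 0.20) and below 0 in the other classes shown.

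Oligodendrocyte precursors (277 wild-type and 540 total knockout nuclei) had the neuronal direction. Hspa8 was 219 and 78.6 CPM (-1.48, -1.84 to -1.13), Hsp90aa1 202 and 122 (-0.73), Hsp90ab1 260 and 187 (-0.47) and Hspd1 55.1 and 30.0 (-0.88). The other members had intervals that spanned 0. Of these precursors 15.2% in wild type and 35.0% in the total knockout lay next to the marker threshold. Mitochondrial transcripts summed to 1135 and 952 CPM in them and ribosomal protein genes to 3989 and 3060 CPM. The total knockout held no female nucleus, and no ratio between male nuclei is given for this class. The part of these in the differences was not tested. Astrocytes, the class in which the astrocyte knockout was labelled to act, were too few for most members, with 97, 90, 22 and 57 nuclei. Hspa8 rested on 50, 10, 7 and 34 UMIs there (201, 72.6, 173 and 244 CPM), and its ratio in the total knockout was -1.47 (-2.61 to -0.47). Hsp90ab1 rested on 45, 26, 2 and 40 UMIs. Dnajb1 had 0 UMIs in astrocytes of all 4 libraries, which by a limit of 3 counts allows up to 12.03, 21.8, 74.1 and 21.5 CPM.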

How the data were processed

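Nuclear RNA of hippocampus was counted with Cell Ranger ARC 2.0.0 on mm10, per the submitters' processing notes. The deposited values are raw UMI counts, with genes named by symbol alone. The sources used here give no annotation, strand setting or rule of barcode selection. The wild type, total, astrocyte and neuron knockout files were joined on the 20211 of 22989 symbols listed in all 4.

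Nuclei with at least 500 genes and at most 5% mitochondrial UMIs were kept, and doublets called by Scrublet (scanpy 1.11.5, expected rate 0.8% per 1000 barcodes) were removed. A nucleus joined a class with at least 3 of the 8 markers of its list and 2 more than of any other list. Between 5.7% and 13.7% of nuclei per library joined neither a broad neuron class nor another broad cell type. Excitatory nuclei that passed none of the excitatory subclass lists are not in this share. There were 6383, 15009, 7901 and 6526 excitatory nuclei in wild type, total, astrocyte and neuron knockout. Many of them joined none of the dentate granule, CA1, CA2/CA3 and cortical or subicular classes and are left out of those values. Nuclei with at least 2 Xist UMIs and no UMI of 4 Y-linked genes were called female, and those with no Xist UMI and at least 1 Y-linked UMI male.

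UMIs were summed per class and library and scaled to the class total (CPM). Counts past 1.5-fold, medians and ranks over genes used a pseudocount of 1 UMI, while printed ratios of single genes used none. Genes needed at least 100 UMIs over the 4 libraries, counted in all nuclei of the class. The same genes were used for shares in male, thinned and no mitochondrial UMI nuclei, where ratios rest on fewer UMIs. Intervals are exact Poisson (levels), exact conditional binomial (ratios) and Clopper-Pearson (shares) at 95%, for counting error only. The call of changed genes by fold and the ratio interval were checked on simulated counts without differences between animals. Marker classes, doublet calls, sex calls and thinning were not checked in this way. Near-identical copies at least 500 bases long exist for Hspa8 (6 genes), Hsp90aa1 (3) and Hspd1 (1), of which 0 are in the count tables, so reads of these members may have been dropped or shared in counting.

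The 9 members and the gene lists were chosen with earlier results of these data known. Besides the members, the text names genes of these lists past 1.5-fold in the class discussed, a few others given as context, and the 10 genes nearest in pattern. Not every such gene is reported here. Alternatives changed the gene minimum, doublets, markers, scaling, depth, sex of nuclei, the fold and the low-count filter. The use of nuclei with no mitochondrial UMI was added after seeing the data. Python 3.11.15, numpy 2.4.6, scipy 1.17.1, pandas 2.3.3 and matplotlib 3.10.9 were used.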

Additional observations from a re-analysis of the deposited data

Results flagged for a closer look

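A gene is given here where its ratio to wild type in 1 class was above 0 with its counting interval while the intervals of the same knockout lay below 0 in other classes. With 1 library per genotype the difference between classes was not tested. In oligodendrocytes of the total knockout Hsp90aa1 had a log2 ratio of 0.47 and Hsp90ab1 one of 0.20, and both lay below 0 in 6 other classes. Hspa5 had 0.30 in the same class and lay below 0 in 3 others. Hsph1 had 0.64 there, on 35 wild-type and 92 total knockout UMIs, and lay below 0 in inhibitory nuclei only. Between male oligodendrocyte nuclei the intervals of all 4 genes spanned 0, as given above. In astrocytes of the neuron knockout Hsp90ab1 had a log2 ratio of 0.67 (0.01 to 1.31), on 45 wild-type and 40 neuron knockout UMIs, and lay below 0 in 6 other classes. Mitochondrial transcripts in astrocytes summed to 1468 CPM in wild type and 4893 CPM in the neuron knockout, and ribosomal protein genes to 5251 and 6885 CPM. Both were higher in the neuron knockout, as was Hsp90ab1, and their part in the difference was not tested.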

How the results depend on the processing

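No paired analysis was possible because each genotype has 1 library, and for the same reason no replicate could be left out. The count of members at least 1.5-fold from wild type moved with the settings, and no ratio past 1.5-fold changed sign under the alternatives run. Ratios nearer 0 did: the sign of 10 of 81 changed with male nuclei only, 6 with no mitochondrial UMI, 13 with thinning, 6 with the stricter marker gate, 3 with doublets kept, 2 with median of ratios scaling and 0 with at least 1000 genes. With a fold 25% above 1 in place of 1.5-fold the counts for the total, astrocyte and neuron knockouts were 2, 5 and 5 of 9 in dentate granule, 5, 7 and 5 in CA1 and 4, 8 and 7 in inhibitory nuclei, where the 1.5-fold counts were 0, 3 and 3, then 2, 3 and 3, then 2, 4 and 3. The share of all genes past the smaller fold was 22.6%, 22.8% and 22.6%, then 21.9%, 20.1% and 20.5%, then 23.8%, 24.2% and 24.1%. Thinning each nucleus to 1000 UMIs gave 2 in place of 0 in dentate granule nuclei of the total knockout, where the share of all genes went from 7.92% to 18.6%. These were Hspa8 and Dnajb1. In dentate granule nuclei of the other knockouts thinning ended the 1.5-fold call of Hsp90aa1, at -0.51 in both in place of -0.66 (astrocyte) and -0.68 (neuron knockout), while Hspd1 was added in both and Hsph1 in the neuron knockout. The share of all genes was 19.5% and 20.5% there. In CA1 nuclei thinning gave 2, 4 and 4 members, beside 22.8%, 22.3% and 24.2% of all genes. Dnajb1 in the neuron knockout was above wild type there. In inhibitory nuclei thinning gave 3, 5 and 4 members, beside 22.1%, 24.3% and 23.6%. Male nuclei alone gave 0 in place of 2 in CA1 and 1 in place of 2 in inhibitory nuclei of the total knockout, and 2 in place of 4 in inhibitory nuclei of the astrocyte knockout. Nuclei with no mitochondrial UMI, an alternative chosen after seeing the data, gave 1 in place of 2 in inhibitory nuclei of the total knockout. The cause of these shifts was not tested. Of the 81 ratios (9 members, 3 classes, 3 knockouts), 43 left the counting interval of the main ratio with male nuclei only. With thinning 44 did, and without mitochondrial UMIs 35. It was 2 with a stricter marker gate, 1 with doublets kept and 0 with at least 1000 genes or median of ratios scaling. That scaling shifted every ratio up by 0.019 to 0.056. These counts leave out the counting error of the alternative, which rests on fewer UMIs with thinning or a subset of nuclei. The median shift was 0.13 with male nuclei only (-0.26 to 0.53) and 0.07 without mitochondrial UMIs (-0.55 to 1.11). With thinning it was -0.02 (-1.02 to 1.33). Lowering the minimum from 100 to 20 UMIs per gene raised the share of all genes past 1.5-fold from 7.92% to 15.1% in dentate granule nuclei of the total knockout. Few UMIs limit Dnajb1 in all classes, and few nuclei limit most members in astrocytes.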
